A study of Homo sapiens with 2 samples.

Results

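Translation initiation factors load the small ribosomal subunit with initiator tRNA, bring it to the capped 5′ end of an mRNA, let it scan to a start codon and join it to the large subunit. The GTP-binding factor eIF2 carries the initiator tRNA, eIF2B recharges eIF2 with GTP, and kinases that phosphorylate eIF2 turn eIF2 into an inhibitor of eIF2B, which slows most protein synthesis while favouring a few mRNAs such as that of ATF4. The cap-binding complex eIF4F, the many-subunit scaffold eIF3 and the poly(A)-binding proteins link the mRNA to the ribosome, and cap-binding activity is often raised in tumours. The genes described here were taken by symbol: those beginning EIF1 to EIF6, without EIF2AK2, the EIF4EBP genes and hyphenated readthrough genes, together with PABPC1, PABPC4, DENR, MCTS1 and ABCE1. This rule found 54 of the 13017 genes listed in both libraries, and EIF4E1B and EIF2S3B, whose symbols also fit it, were not analysed here.

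The 2 libraries came from a breast cancer cell line called 468, described as epithelioid and grown in L15 medium with 10% FBS. One group (1 library) is labelled as a THAP7-AS1 knockdown, made by transfecting a Smart Silencer against this antisense RNA, and the other (1 library) as the si-NC control. Cells were taken after 48 h. Since the label for treatment is the same in both samples, the groups rest on the genotype label; both are of 1 line, and nothing states how many cultures each library holds. With 1 library per group there was no replicate check and no test, so every difference below describes these 2 libraries and may lie within the spread between cultures, which was not measured.

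FPKM counts fragments per kilobase of gene, scaled to the fragments of the library. Levels of different genes can be set side by side only roughly, as they also depend on annotated length and on how shared reads were divided. The FPKM sum was 213442 for knockdown and 213888 for control, over an estimated 11100000 and 10900000 fragments. THAP7-AS1 was not analysed here, and THAP7, on its opposite strand, was at 8.38 FPKM in the knockdown and 2.71 FPKM in the control library, though reads of the antisense pair cannot be told apart without strand. The epithelial keratin and adhesion genes (6 of 6) and the basal breast genes (4 of 4) that were looked for averaged 1 FPKM or more. The 2 stromal genes analysed did not, and the blood and endothelial genes were not analysed here.

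The log2 ratio used throughout is log2((knockdown FPKM + 1)/(control FPKM + 1)), above 0 where the knockdown library was higher. It understates differences of low genes. Of the 54 initiation factor genes, 52 averaged 1 FPKM or more over the libraries and were kept for counts and medians, as were 10925 of all genes. EIF4G3, an eIF4G relative, was listed at 0.180 and 0.344 FPKM and EIF5AL1, a copy of EIF5A, at 0.101 and 0.146 FPKM in the knockdown and control libraries, and both fell under that limit.

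Initiation factor genes were at nearly the same level in both libraries. None of the 52 was at least 2-fold higher or lower, where 0.604% of all genes kept were 2-fold higher and 0.668% 2-fold lower. None reached 1.5-fold either, against 2.98% of all genes kept in the higher and 2.46% in the lower direction. The 2-fold shares are small, so a count of 0 among 52 genes is near the background and is no result about these genes. The log2 ratios ran from -0.49 for EIF1AD to 0.40 for EIF3F, around a median of 0.04 (0.017 with quantile normalization, 0.027 when centred on the median of all genes, 0.025 when rescaled without the 100 most abundant genes, and 0.022 as a mean). Over all genes kept the median was 0.02.

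Above 0 lay 31 of the 52 genes (59.6%), beside 53.1% of all genes kept. The spread of the ratios, as an SD derived from the median absolute deviation, was 0.13 over the 52 genes and 0.21 over all genes kept. Beside other genes of the same level the members were closer to 0 in 2 of 4 ranges. Over the 27 members with a mean of 20 to 100 FPKM the median absolute log2 ratio was 0.052, and over all 1811 genes of that level 0.12. The 5 members of 1 to 5 FPKM had 0.088, against 0.16 over 4336 genes. Among the 16 members of 5 to 20 FPKM the corresponding values were 0.15 and 0.14 over 4535 genes, and among the 4 members of at least 100 FPKM 0.11 and 0.093 over 243 genes. Under 3 other scalings 28 or 29 of the 52 lay above 0. Summed, the 54 genes took 1.196% of all FPKM in the knockdown and 1.16% in the control library.

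**Figure D1:**
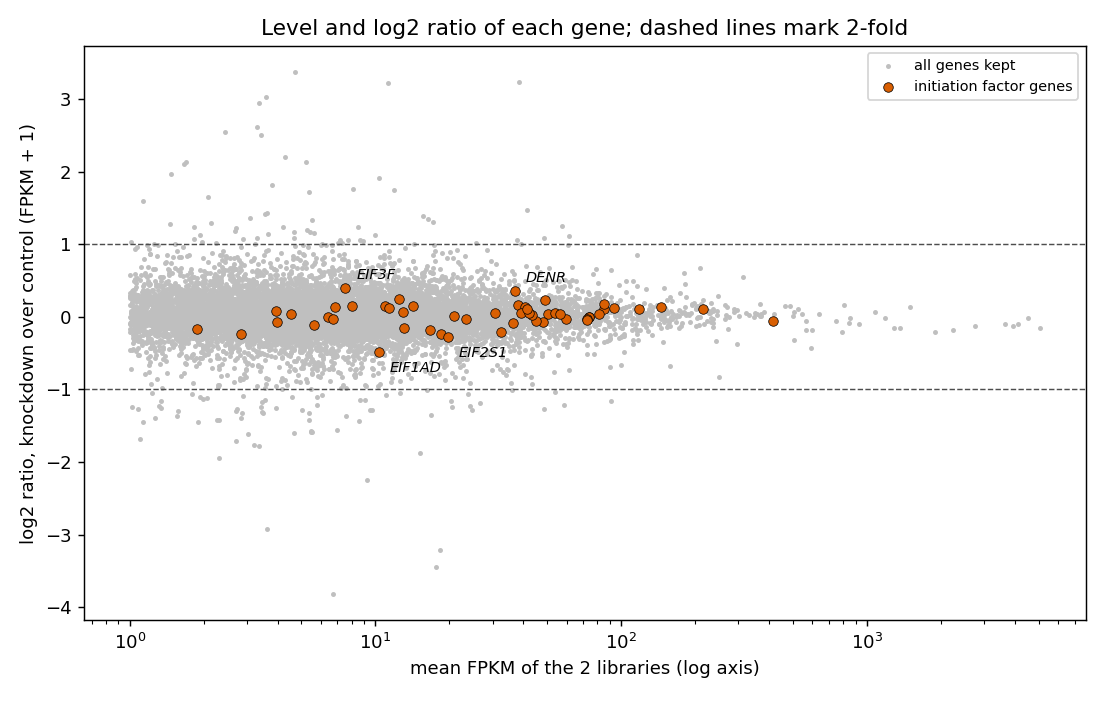
Mean FPKM of the 2 libraries (x, log axis) against the log2 ratio of knockdown over control (y) for the 10925 genes kept (grey) and the 52 initiation factor genes among them (orange). All orange points lie between the dashed 2-fold lines, from -0.49 (EIF1AD) to 0.40 (EIF3F).

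Many mRNAs of the translation machinery begin with a C followed by a run of C and T, the 5′ terminal oligopyrimidine or TOP sequence, through which the kinase mTOR and the RNA-binding protein LARP1 control their translation. Start sequences were therefore read for the members from RefSeq (GRCh38.p14). The first 9 lines show the members that carry such a start. The last 3 show EIF1AD, with the lowest ratio, and the partners DENR and MCTS1, which are described below. Each line gives 15 bases before and 15 bases from the annotated start, 5′ to 3′. Capitals mark an unbroken run of at least 5 bases that opens with C at the start itself and holds only C and T, which the last 3 lines lack.
EIF3F: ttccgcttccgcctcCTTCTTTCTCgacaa
EIF3D: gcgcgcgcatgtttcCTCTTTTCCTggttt
EIF3K: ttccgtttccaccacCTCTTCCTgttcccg
EIF3M: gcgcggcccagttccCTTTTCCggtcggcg
EIF2S3: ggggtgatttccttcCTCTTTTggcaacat
EIF2A: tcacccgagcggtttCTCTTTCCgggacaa
EIF2D: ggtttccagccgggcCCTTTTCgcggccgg
EIF4A2: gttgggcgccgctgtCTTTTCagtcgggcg
EIF4B: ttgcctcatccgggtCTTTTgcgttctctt
EIF1AD: cgagacagcgccggaagtacggttttcgga
DENR: cgataaaggctcattgtctcgcgggagcgc
MCTS1: caggaagcaagcggcctgtcatgcctattg

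In GRCh38.p14 these windows lie, on the plus strand, at chr11:7987322-7987351 for EIF3F, chr19:38619173-38619202 for EIF3K, chr11:32583816-32583845 for EIF3M, chrX:24054941-24054970 for EIF2S3 and chr3:150546772-150546801 for EIF2A. Also on the plus strand are EIF4A2 at chr3:186783562-186783591, EIF4B at chr12:53006441-53006470, DENR at chr12:122752809-122752838 and MCTS1 at chrX:120604684-120604713. The windows of EIF3D at chr22:36529152-36529181, EIF2D at chr1:206612451-206612480 and EIF1AD at chr11:66002143-66002172 are on the minus strand. The expression tables were made on hg19, and the sequences were joined to them by symbol alone.

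A RefSeq start was matched for 44 of the 54 members, and 9 of these (20.5%) opened with the run. Among all genes kept with a matched start 7.54% did (668 of 8860). Both shares read only the gene's own strand and count a gene once if any of its starts matched. Of all 35116 start sequences held for RefSeq genes 4.07% did. That share counts each sequence, so it is not the same measure as the shares of genes. The 9 members with the run had log2 ratios from -0.06 (EIF2D) to 0.40 (EIF3F), a median of 0.03, and 6 of 9 above 0. The 33 kept members with a matched start and no run had a median of -0.002, with 16 above 0. The 10 kept members with no matched start had a median of 0.12, with 9 above 0, so the first 2 groups do not cover all members. Over all genes kept the medians were 0.04 with the run and 0.01 without it. The longest runs, 10 bases each, belonged to EIF3F and EIF3D, which had ratios of 0.40 and -0.03.

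Initiation begins with factors that keep the small subunit open for scanning and check the start codon. EIF1, which guards start codon choice, was at 12.4 FPKM in the knockdown and 13.8 FPKM in the control library, and its close relative EIF1B at 8.504 and 7.58 FPKM. The pair had log2 ratios of opposite sign, -0.15 and 0.15. Without the added 1 these were -0.16 and 0.17, beside estimated counting errors of 0.089 and 0.16. EIF1B rests on about 181 and 159 fragments, so its direction and the shares of the pair are uncertain. EIF1 made up 59.3% of the pair's FPKM in the knockdown and 64.6% in the control library. EIF1AX, the X-linked gene of eIF1A, which works with EIF1 in scanning, was at 43.2 and 41.4 FPKM. EIF5, which makes eIF2 spend its GTP, was at 21.0 and 20.8 FPKM, and EIF5B, the GTPase that joins the subunits, at 82.3 and 79.6 FPKM. In the knockdown library the last 3 were 4.36%, 3.33% and 1.07% higher (EIF1AX, EIF5B and EIF5), with log2 ratios of 0.06, 0.05 and 0.01; that of EIF5 was just below 0 under 2 other scalings.

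EIF1AD, which carries an eIF1A-like domain, had the lowest ratio of the members kept. Its level was 8.42 FPKM in the knockdown and 12.2 FPKM in the control library, and its log2 ratio -0.49. Without the added 1 the ratio was -0.54, with an estimated counting error of 0.11 (about 312 and 445 fragments). Of all genes kept, 8.29% had a larger absolute ratio. Exons of EIF1AD share 98 bases with BANF1 on the opposite strand, which was at 26.9 and 29.2 FPKM, and without a stated strandedness reads there cannot be told apart.

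The subunits of eIF2 did not move together. EIF2S1, the alpha subunit that the eIF2 kinases phosphorylate, was at 17.8 FPKM in the knockdown and 21.8 FPKM in the control library. Its log2 ratio was -0.28. EIF2S2, the beta subunit, was at 224 and 207 FPKM, a ratio of 0.11, and EIF2S3, the gamma subunit that binds GTP and tRNA, at 71.5 and 73.6 FPKM, a ratio of -0.04. EIF2S2 was thus 12.6 times the level of EIF2S1 in the knockdown and 9.50 times in the control library. Their annotated lengths differ (2656 and 5651 bases), and the estimated fragments were 6616 and 1118 in the knockdown library. Of the 50-base words in EIF2S2 transcripts 22.6% occur in transcripts of other genes, mostly the pseudogene EIF2S2P4, and of those in EIF2S3 19.2%, so reads of both may be divided by estimate. EIF2S1 has 3.93% shared words, all with ATP6V1D on the opposite strand, which was at 11.6 and 9.42 FPKM. The counting error of the EIF2S1 ratio was estimated at 0.058, and 23.2% of all genes kept had a larger absolute ratio.

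The exchange factor eIF2B was higher in the knockdown library in 3 of its 5 subunits (60%, beside 53.1% of all genes kept), by like amounts. EIF2B1, the alpha subunit, was at 15.1 and 13.5 FPKM, EIF2B3 at 11.5 and 10.3 FPKM, and EIF2B5, the catalytic epsilon subunit, at 7.19 and 6.46 FPKM. Their log2 ratios were 0.15, 0.14 and 0.14. Without the added 1 these were 0.158, 0.158 and 0.155, beside estimated counting errors of 0.085, 0.10 and 0.088. The beta subunit EIF2B2 was at 6.38 and 6.40 FPKM, and the delta subunit EIF2B4 went the other way at 16.8 and 20.02 FPKM, a ratio of -0.24. The median of the 5 was 0.14 and the mean 0.04, and with a pseudocount of 5 the median was 0.09. EIF2B1 shares 536 exon bases with DDX55 on the opposite strand, which was at 4.23 and 5.02 FPKM, and without EIF2B1 the median was 0.07. Shared words make up 13.3% of EIF2B1 and 21.4% of EIF2B2.

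The eIF2 kinases answer different stresses, and the level of each of the 3 among the members differed little between the libraries. EIF2AK1, the heme-regulated kinase HRI, was at 88.1 FPKM in the knockdown and 81.6 FPKM in the control library. EIF2AK3, the endoplasmic reticulum kinase PERK, was at 5.39 and 5.87 FPKM, and has 13.5% shared words. EIF2AK4, the amino acid sensor GCN2, was at 4.60 and 4.42 FPKM. The log2 ratios were 0.11, -0.11 and 0.05, so one of the 3 lay below 0. Against their estimated counting errors of 0.028, 0.11 and 0.084, the ratio of EIF2AK1 without the added 1 was 0.11, that of EIF2AK3 -0.12 and that of EIF2AK4 0.06. EIF2AK2, which the rule leaves out, was at 20.4 and 24.0 FPKM.

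In order of level EIF2AK1 was far above the other kinases among the members in both libraries. It was at 16.4 and 13.9 times EIF2AK3 and 19.2 and 18.5 times EIF2AK4. EIF2AK1 held 89.8% of the 3 kinases' FPKM in the knockdown and 88.8% in the control library. This share leaves out EIF2AK2, which at 20.4 and 24.0 FPKM was next in level after EIF2AK1. The level of EIF2AK1 carries a limit: its exons share 532 bases with AIMP2 on the opposite strand, and AIMP2 was at almost the same level, 89.6 and 83.4 FPKM, with a log2 ratio of 0.10. Reads from the shared stretch cannot be assigned without strand, and their part in the level of EIF2AK1 was not tested.

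Of the genes that act on the same step but are not initiation factors, a few were further apart than any factor. PPP1R15A, the stress-induced subunit that directs protein phosphatase 1 to eIF2, was at 37.6 FPKM against 21.7, a log2 ratio of 0.77. Its constitutive counterpart PPP1R15B was at 15.5 FPKM in both libraries, with a ratio of -0.001. The catalytic subunits PPP1CA, PPP1CB and PPP1CC had ratios of 0.25, 0.04 and -0.26. None of these 5 genes was 2-fold apart by the log2 ratio of FPKM + 1. Of all genes kept 0.604% were 2-fold higher and 0.668% lower, so this count is near the background.

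Among 12 kinase partners and response genes, 9 had a log2 ratio above 0 (75%, beside 53.1% of all genes kept). Their median was 0.10. By this ratio 0.604% of all genes kept were 2-fold higher, and of the 12 genes 1 was. That was DDIT3, the transcription factor CHOP, at 8.78 FPKM against 1.97. CHAC1, a glutathione-degrading enzyme, was at 2.34 against 0.780 FPKM, more than 2-fold apart as FPKM but 1.87-fold once 1 is added. TRIB3, a pseudokinase induced by ATF4, was at 33.2 against 20.7 FPKM and ASNS, asparagine synthetase, at 14.2 against 10.4 FPKM. ATF4 itself was at 280 and 250 FPKM, a ratio of 0.16. The kinase partners GCN1, which activates EIF2AK4, and DNAJC3, an inhibitor of PERK, had ratios of 0.06 and 0.11. Below 0 were ATF5, a relative of ATF4 in the same response, at 6.51 and 7.66 FPKM (-0.21), the adaptor NCK1 (-0.23) and DELE1 (-0.12), which relays mitochondrial stress to EIF2AK1. The 3 kinases and 3 eIF2 subunits lay between -0.28 and 0.11. No difference between these groups was tested. The lists were chosen with earlier results of these data known, among them the values of DDIT3, CHAC1 and PPP1R15A.

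**Figure D2:**
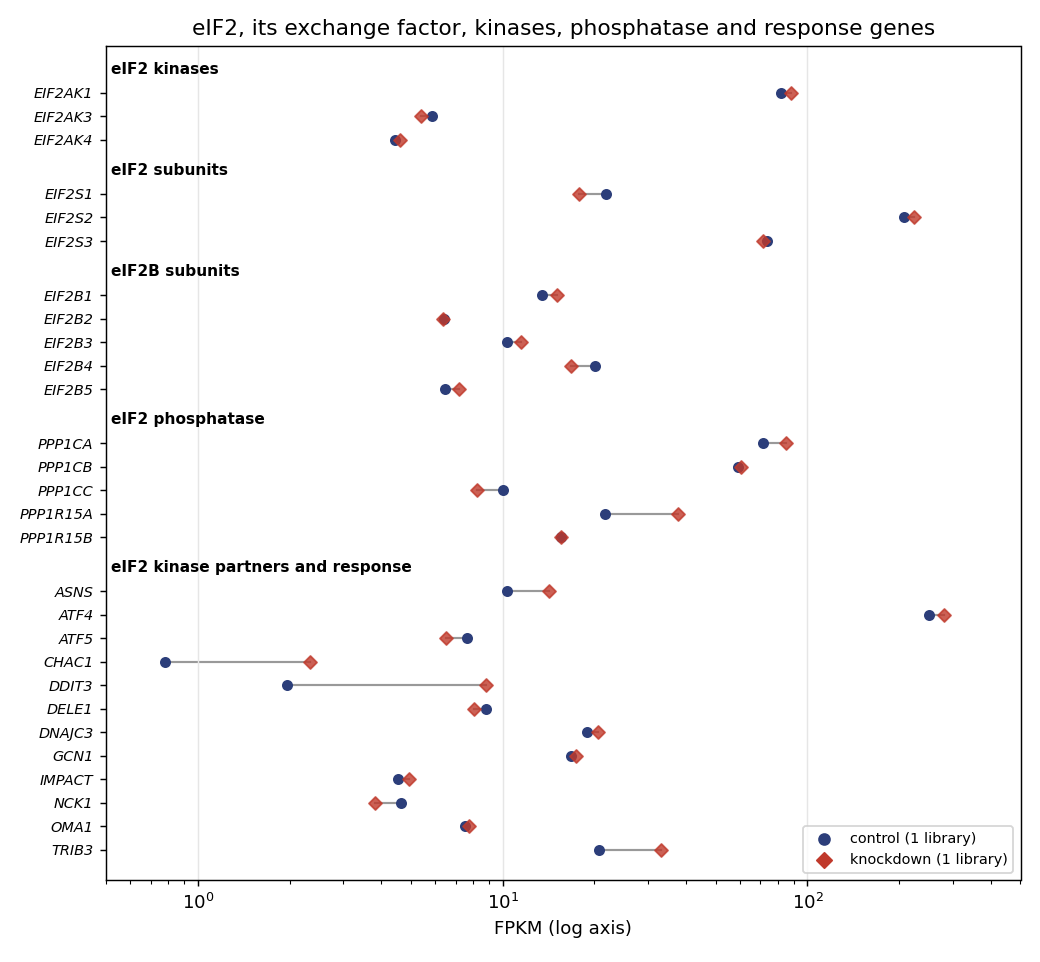
FPKM (log axis) of eIF2 kinases, eIF2 and eIF2B subunits, phosphatase subunits and kinase partners and response genes in the knockdown (red diamonds) and control (blue circles) libraries, 1 library each. The markers lie close together for the kinases, and are furthest apart for DDIT3 (8.78 and 1.97) and CHAC1 (2.34 and 0.780).

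The scaffold eIF3 binds the small subunit and holds the other factors around the mRNA channel. Of its subunit genes, 12 of 14 lay above 0 (85.7%, beside 53.1% of all genes kept), or 11 of 14 under each of 3 other scalings. Their median log2 ratio was 0.11, and that of all genes kept 0.02. Summed over the 14 genes, FPKM was 907 for knockdown and 850 for control. The count and the sum both take in EIF3C and its near-identical copy EIF3CL, which share most of their sequence and are not separate evidence. Without members with at least 10% shared words, which leaves out both copies and EIF3L, 9 of 11 lay above 0.

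EIF3A, the largest scaffold subunit, was at 97.8 and 89.8 FPKM in the knockdown and control libraries. EIF3B, which with EIF3G and EIF3I forms a module near the mRNA channel, was at 42.4 and 38.5 FPKM, EIF3G at 90.8 and 80.2 FPKM and EIF3I at 122 and 113 FPKM. The log2 ratios of these 4 lay close together, at 0.12, 0.13, 0.18 and 0.11. Their estimated counting errors ran from 0.024 to 0.043, below each ratio.

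The core subunits with PCI or MPN domains were spread more widely. EIF3E was at 40.4 and 35.8 FPKM, EIF3H at 39.7 and 38.2 FPKM, EIF3K at 57.1 and 55.6 FPKM, EIF3L at 74.5 and 74.2 FPKM and EIF3M at 43.9 and 43.0 FPKM. Their log2 ratios were 0.17, 0.05, 0.04, 0.01 and 0.03, and that of EIF3L was below 0 under each of 3 other scalings (the lowest, -0.05, with quantile normalization). EIF3L has 44.5% shared words, mostly with AL022311.1 (34.2%), and shares 460 exon bases with ANKRD54 on the opposite strand, so its value is uncertain. EIF3F, an MPN subunit, had the highest ratio of all members. It was at 8.71 FPKM against 6.36, a log2 ratio of 0.40, or 0.45 without the added 1, with an estimated counting error of 0.074. Of all genes kept, 12.5% had a larger absolute ratio. EIF3F was also the lowest eIF3 gene in level, below EIF3J at 35.2 and 37.5 FPKM. Of its 50-base words 5.96% occur elsewhere, mainly in the intronless copy EIF3FP3.

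EIF3D, a subunit that can itself bind the cap of some mRNAs, and EIF3J, the loosely bound subunit, were the 2 below 0. EIF3D was at 59.0 and 60.4 FPKM, a ratio of -0.03, and EIF3J had a ratio of -0.09. EIF3C was at 43.0 and 39.6 FPKM, and its near-identical copy EIF3CL at 152 and 138 FPKM. Of the words of EIF3CL 97.2% occur in EIF3C, so the division between the copies is uncertain and the higher level of EIF3CL cannot be read as its own expression. Summed, the pair was at 195 and 178 FPKM, with a log2 ratio of 0.13. Because the copies differ in annotated length (6982 and 3091 bases), the summed FPKM also depends on how reads were divided.

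**Figure D3:**
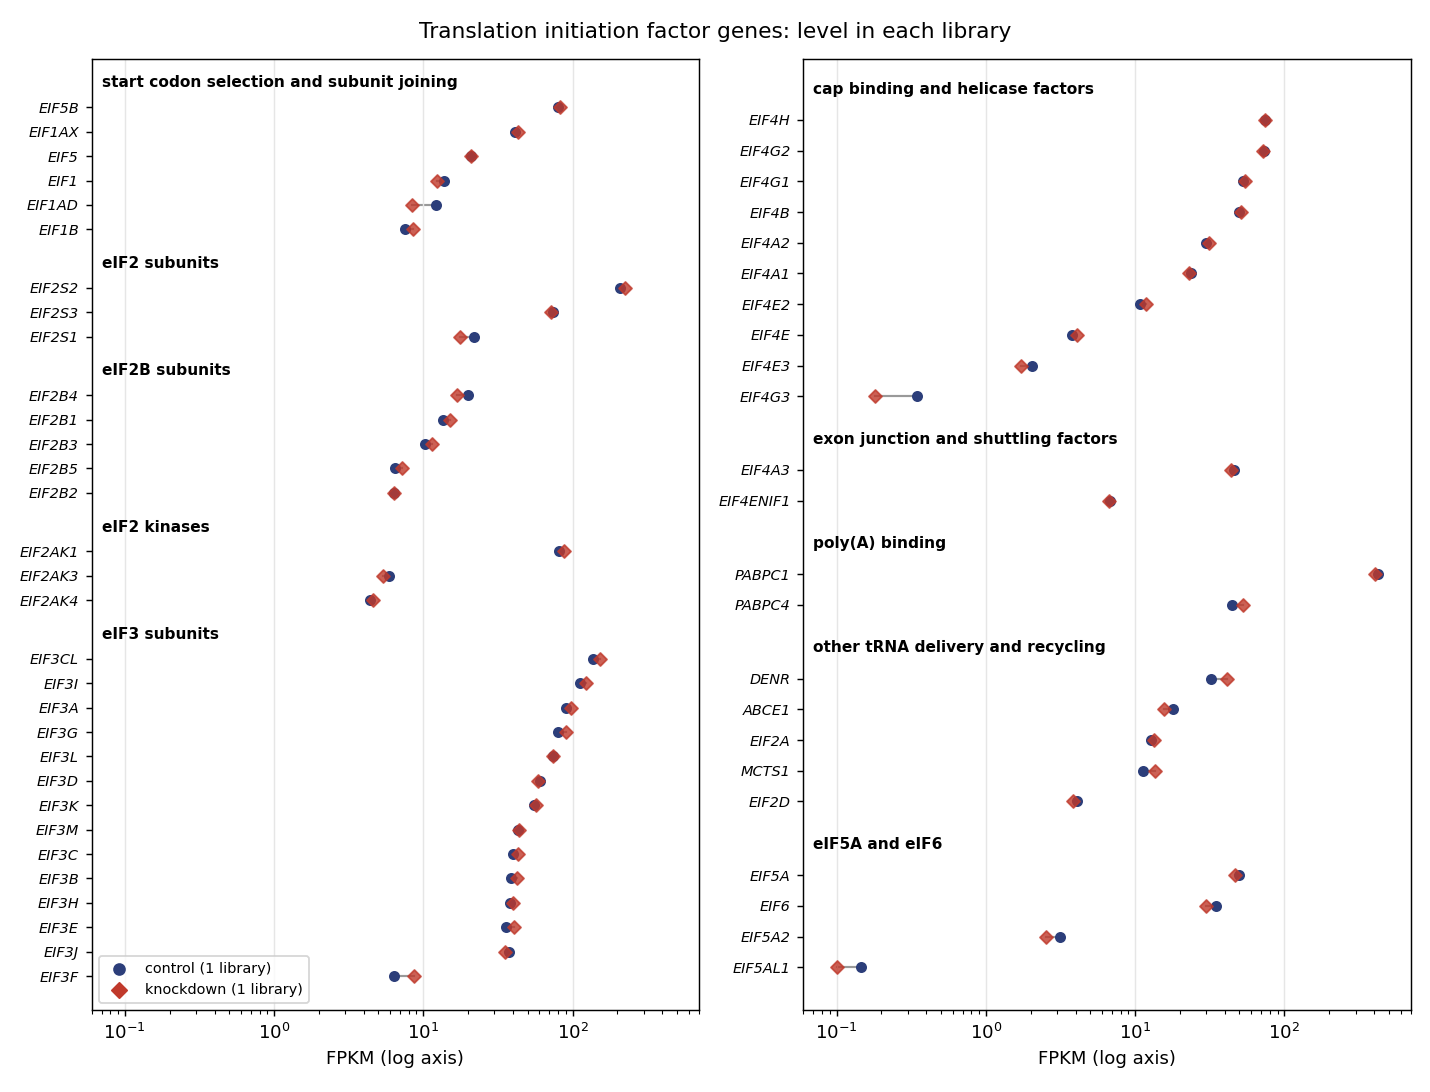
FPKM (log axis) of all 54 initiation factor genes in the knockdown (red diamonds) and control (blue circles) libraries, 1 library each, ordered by level within each group. PABPC1 (407 and 424) is highest, and the libraries are visibly apart for EIF1AD, EIF3F, EIF2S1 and DENR and for EIF4G3 and EIF5AL1, which are below 1 FPKM.

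Factors that bind the cap and unwind the mRNA were at like levels in both libraries, with 5 of 9 above 0 and a median log2 ratio of 0.03, which ran over the other settings from -0.01 under quantile normalization to 0.04 without members with exon overlaps. EIF4G1, the scaffold of eIF4F, was at 54.6 and 52.7 FPKM, and EIF4G2, a relative that does not bind eIF4E, at 71.9 and 73.3 FPKM. EIF4E, the cap-binding subunit, was at 4.10 and 3.80 FPKM. Its relatives EIF4E2 and EIF4E3 were at 11.9 and 10.8 FPKM and at 1.71 and 2.05 FPKM. By level EIF4E was thus below EIF4E2 in both libraries, holding 23.2% and 22.8% of the family's FPKM, and EIF4G1 was 13.3 and 13.9 times EIF4E. The order of EIF4E and EIF4E2 also depends on their annotated lengths (14067 and 7177 bases) and on how reads were divided. EIF4E2 has 22.5% shared words, and its exons share 541 bases with TIGD1 on the opposite strand.

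The helicase cofactors EIF4B and EIF4H were at 51.1 and 49.9 FPKM and at 74.1 and 74.3 FPKM, log2 ratios of 0.03 (-0.005 under quantile normalization) and -0.003. The helicase EIF4A2 was at 31.1 and 30.1 FPKM. Shared words make up 27.6% of EIF4B, 12.5% of EIF4H and 13.0% of EIF4A2. EIF4A1, the main eIF4F helicase, was at 23.1 and 23.6 FPKM, giving a ratio of -0.03. A second entry touches that value: SENP3-EIF4A1, a readthrough gene that runs from SENP3 into EIF4A1 and shares 1586 exon bases with it, was at 7.20 FPKM in the knockdown library and was listed at 0 in the control library. Reads of shared exons are divided between the entries by estimate. Adding both entries gave 30.3 FPKM for knockdown and 23.6 FPKM for control, with 0.35 as log2 ratio. This sum cannot be read as the level of EIF4A1. The shared bases are 29.8% of EIF4A1 exons, and the readthrough entry may also hold reads of SENP3 exons. Summed FPKM depends on annotated lengths as well. Of the 50-base words of EIF4A1 41.0% occur in other genes, mostly AC016876.2 (33.8%), so its own value is uncertain too. Whether the locus was level or higher was not tested.

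Most regulators of cap binding were also close. The eIF4E-binding proteins EIF4EBP1 and EIF4EBP2, which block the assembly of eIF4F, were at 153 and 148 FPKM and at 31.6 and 30.3 FPKM, and EIF4EBP3 at 1.46 and 0.687 FPKM. MKNK2, a kinase of eIF4E, was at 4.90 and 2.53 FPKM, giving a ratio of 0.74, and its relative MKNK1 at 4.80 and 4.33 FPKM. PDCD4, an inhibitor of eIF4A, was at 20.4 and 16.0 FPKM. By the ratio of FPKM + 1 none of the 13 genes in this list was 2-fold apart (EIF4EBP3, which is over 2-fold apart as FPKM, came to 1.46-fold). That count is near the background, as 0.604% of all genes kept were 2-fold higher and 0.668% lower. Of the 13, 10 (76.9%) had a ratio above 0, beside 53.1% of all genes kept. Their median was 0.11, and that of all genes kept 0.02. No difference between the list and all genes was tested, and the list was chosen with earlier results of these data known.

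EIF4A3, a helicase of the exon junction complex despite its name, was at 44.1 and 46.1 FPKM, and EIF4ENIF1, which carries eIF4E into the nucleus, at 6.66 and 6.79 FPKM. Their log2 ratios were -0.06 and -0.02. Both were within the range of the other eIF4 genes.

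Of the poly(A)-binding genes, PABPC1 was the most abundant member of all, at 407 FPKM in the knockdown and 424 FPKM in the control library. PABPC4, its inducible relative, was at 52.9 and 44.7 FPKM. The log2 ratios were -0.06 and 0.24, and PABPC1 was 7.69 and 9.48 times PABPC4. PABPC4 therefore made up 11.5% of the pair's FPKM in the knockdown and 9.55% in the control library. The estimated counting errors were 0.014 and 0.034. Among the partners of these proteins, PAIP1, which stimulates translation, was at 34.7 and 42.1 FPKM, and its opponents PAIP2 and PAIP2B at 42.9 and 41.1 FPKM and at 4.11 and 3.39 FPKM. LARP4, which protects poly(A) tails, was at 5.50 and 7.87 FPKM, a ratio of -0.45. None of the 5 partners kept was 2-fold apart, a count near the background of 0.604% higher and 0.668% lower among all genes kept.

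**Figure D4:**
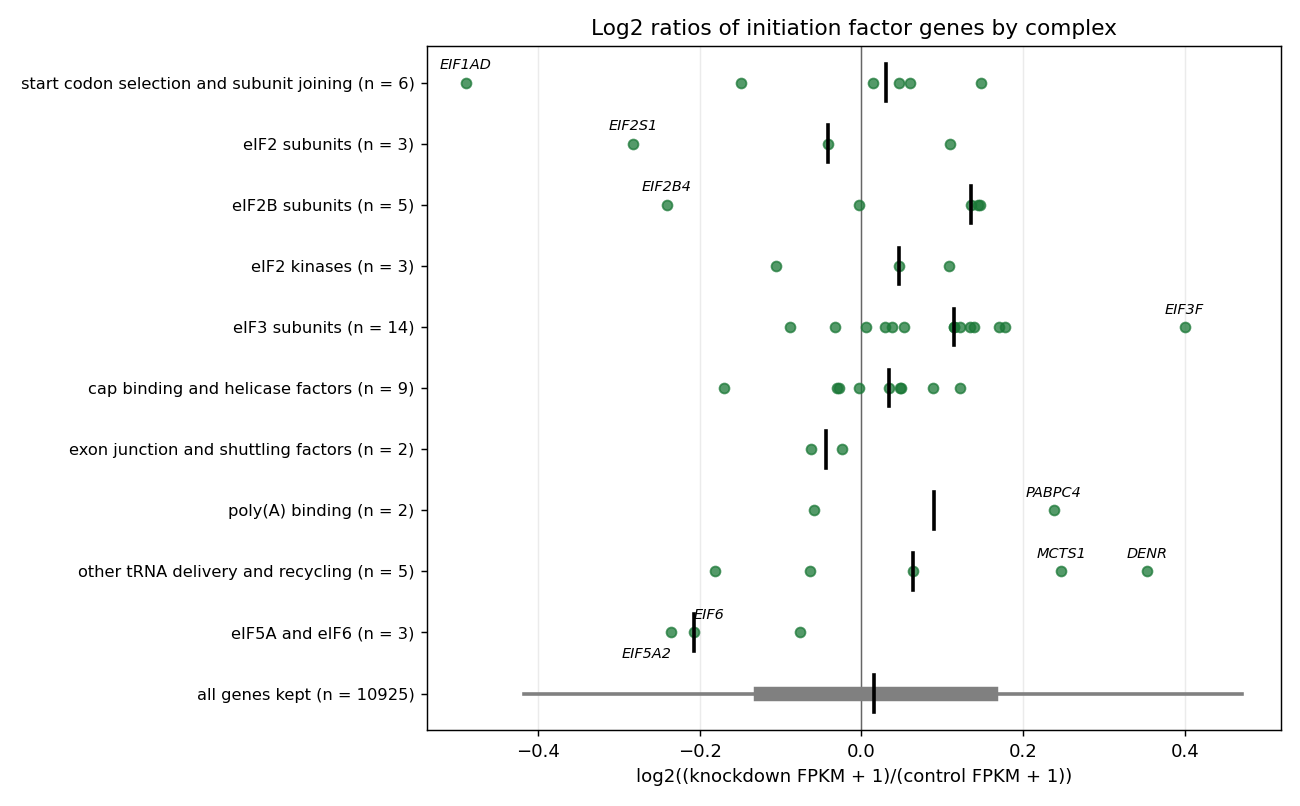
Log2 ratio of each initiation factor gene kept (green points) by group, with the group's median (black bar). The lowest line shows all 10925 genes kept (median, 25th to 75th percentile as a thick bar, 5th to 95th percentile as a thin line); the points of EIF3 subunits lie mostly above 0 and only EIF1AD falls outside the thin line.

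DENR and MCTS1 encode partners of a dimer that removes tRNA from used small subunits and helps re-initiation after upstream reading frames. DENR was at 41.6 FPKM in the knockdown and 32.3 FPKM in the control library, and MCTS1 at 13.6 and 11.3 FPKM. Both were higher in the knockdown library, with log2 ratios of 0.35 and 0.25, the second and the third highest of the members. The ratio of DENR to MCTS1 was 3.06 in the knockdown and 2.87 in the control library. The counting errors were estimated at 0.054 and 0.10, and 15.6% and 28.4% of all genes kept had a larger absolute ratio. EIF2D, which does the work of the dimer in a single chain, was at 3.86 and 4.08 FPKM, a ratio of -0.06.

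ABCE1, the ATPase that splits ribosomes after termination, was at 15.6 and 17.9 FPKM, giving a ratio of -0.18. Its exons overlap those of ANAPC10 and OTUD4 on the opposite strand, which had ratios of -0.22 and -0.11. EIF2A, an alternative carrier of initiator tRNA that is unrelated to eIF2, was at 13.3 and 12.7 FPKM. The 5 genes of this group had a median of 0.06, with 3 above 0. It was 0.16 without EIF2D, which averages under 5 FPKM, and likewise without ABCE1, which has at least 10% shared words, and 0.25 without EIF2A and ABCE1, whose exons overlap those of other genes.

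All 3 kept genes of eIF5A and eIF6 were lower in the knockdown library, where 53.1% of all genes kept had a ratio above 0. EIF5A, the hypusine-carrying factor that helps ribosomes through difficult peptides, was at 47.0 and 49.6 FPKM, and its relative EIF5A2 at 2.52 and 3.14 FPKM. EIF6, which keeps free large subunits from joining, was at 30.03 and 34.8 FPKM. The log2 ratios were -0.08, -0.23 and -0.21, with a median of -0.21. It was -0.11 with a pseudocount of 5, and -0.14 both without the filter and in genes averaging 5 FPKM or more. Leaving out members with exon overlaps, or those with shared words, left EIF5A2 alone at -0.23. EIF5A has 20.6% shared words and shares 241 exon bases with GPS2 on the opposite strand. EIF6 has 13.3% shared words and shares 17.4% of its exon bases with another gene on the same strand. The estimated counting error for EIF5A2 was 0.16 beside a ratio of -0.32 without the added 1. EIF5A held 94.7% of its family's FPKM in the knockdown and 93.8% in the control library. DHPS, which starts hypusine formation, was at 16.4 and 19.1 FPKM, a ratio of -0.20.

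**Figure D5:**
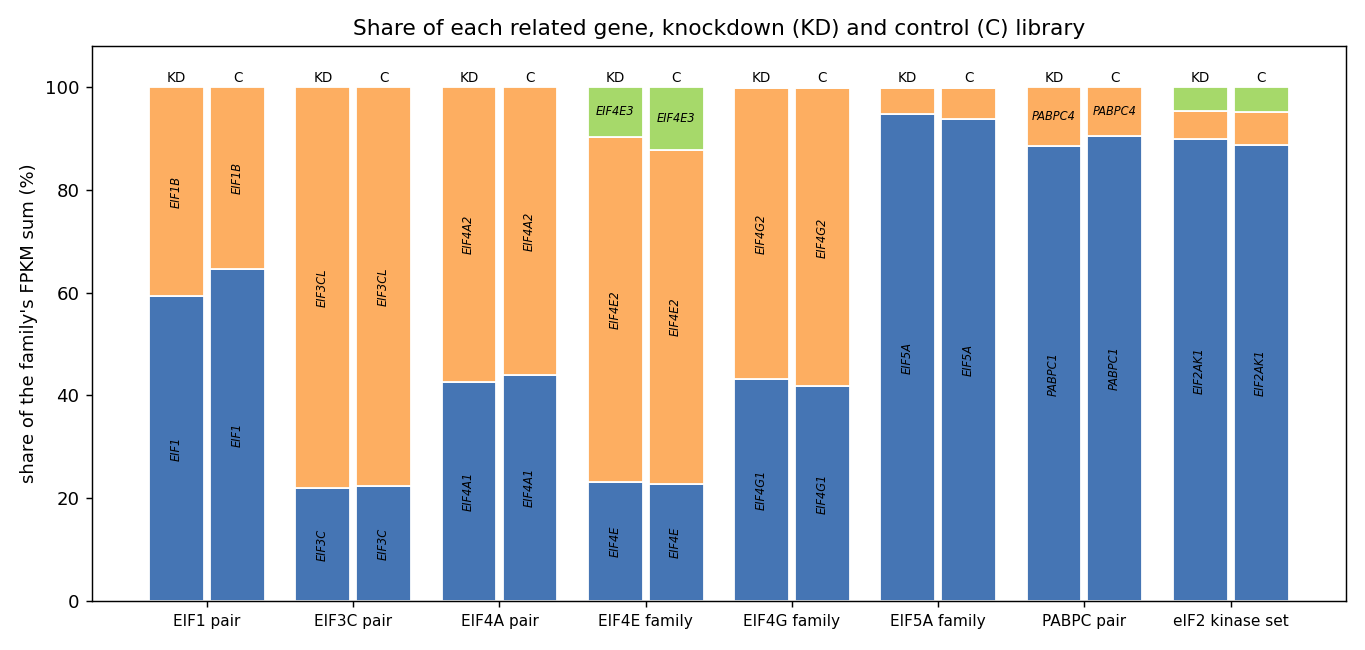
Share of each gene in the summed FPKM of its family or set (y, percent) in the knockdown (KD) and control (C) libraries, stacked in alphabetical order from the bottom; segments too thin for a label follow that order. EIF1 has 59.3% and 64.6% of its pair, EIF4A1 42.6% and 44.0%, and PABPC1 88.5% and 90.5%.

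Most factors of later steps were also close in both libraries, while EEF1D and ETF1 were further apart. The elongation factor genes EEF1A1 and EEF2 were at 363 and 351 FPKM and at 491 and 441 FPKM, and EEF1D, a nucleotide exchange subunit, at 24.0 and 17.9 FPKM, with a ratio of 0.40. The release factor gene ETF1 was at 41.3 and 34.1 FPKM, a ratio of 0.27, and its partner GSPT1 at 33.7 and 33.3 FPKM. The mitochondrial initiation factor genes MTIF2 and MTIF3 both had a ratio of -0.07. Over all 46 genes of the related lists that were kept, 1 (DDIT3) was 2-fold higher and 0 lower on the FPKM + 1 scale. That scale holds CHAC1 and EIF4EBP3 under 2-fold. Of all genes kept 0.604% were 2-fold higher and 0.668% lower. A ratio above 0 was found for 31 of the 46 (67.4%), beside 53.1% of all genes kept, in lists chosen with earlier results known.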

How the data were processed

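The authors deposited FPKM values, 1 table for each library. They used HISAT2 2.0.5, StringTie, cutadapt and the build hg19, per the submitters' processing notes; annotation and strandedness: not given in the sources used here. StringTie divides reads of overlapping or copied genes by estimate. Identifiers were mapped to symbols without their version (12746 of 13017 had one). Log2 ratios used a pseudocount of 1, and counts and medians used genes averaging 1 FPKM or more. With 1 library per group, folds of 2 and 1.5 replaced a test. Depth was estimated from the value of 1 fragment in genes with 1 transcript in GENCODE 29 (14 and 10 genes, in a window of 80 to 100 for FPKM times length set with earlier results known). Counting errors follow from it and cover counting only; annotated exon lengths may overstate fragments. GENCODE 29 also gave exon overlaps and shared words of 50 bases, by identifier. Any member may be named; related genes were named when 1.5-fold apart at a mean of at least 5 FPKM, or among the 4 largest ratios of a list. A few others of these lists, chosen after their values were seen, were named for their role. Members and lists were chosen with earlier results of these data known. The ratio, spread and scaling functions were tested on simulated data. Python 3.11.15, numpy 2.4.6, pandas 2.3.3 and matplotlib 3.10.9 were used.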

Additional observations from a re-analysis of the deposited data

Results flagged for a closer look

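SENP3-EIF4A1, a readthrough gene outside the initiation factor genes by rule, drew attention because it was at 7.20 FPKM in the knockdown library and listed at 0 in the control library. It shares exons with EIF4A1 on the same strand, and the division of reads between the entries was not tested.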

How the results depend on the processing

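Settings that leave out members with exon overlaps (21 members) or with at least 10% shared 50-base words (18 members), and the sum of EIF4A1 with its readthrough gene, were chosen after seeing the data. The count of 0 members at least 2-fold apart was 0 under every alternative run, including pseudocounts of 0.1 and 5 and a fold of 1.5. The median of all members, 0.04, ran from 0.017 with quantile normalization to 0.049 without members with shared words. The median of eIF2B subunits, 0.14, was 0.089 with a pseudocount of 5, 0.066 without members with overlaps and 0.037 as a mean. That of eIF5A and eIF6 genes, -0.21, was -0.11 with a pseudocount of 5, -0.14 without the filter and -0.14 in genes averaging 5 FPKM or more. It was -0.23 without members with overlaps and without those with shared words, each of which left EIF5A2 alone. That of eIF2 subunits, -0.04, was -0.28 without members with shared words, which left EIF2S1 alone. Of 359 values of single members under another planned setting, 0 moved by the spread of genes at their level and 7 changed sign, those of EIF3L, EIF5, EIF4B and EIF4G1, all near 0. EIF4A1, at -0.03, was 0.35 when summed with SENP3-EIF4A1, a sum that may include reads of SENP3 exons. No paired analysis was possible because each group holds 1 library. Depth limits low genes most, and no alternative measures the spread between cultures.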
